A study of Mus musculus with 15 samples.

Results

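The potassium channel genes of the embryonic mouse brain were taken as every gene in the deposited expression table whose symbol starts with Kcn, which gave 95 of 24264 genes. The symbol covers the pore-forming subunits, the accessory subunits that tune them and, by its name alone, the non-coding RNA Kcnq1ot1, which is no channel. The table holds RPKM values, which correct read numbers for gene length and library depth. Their totals differed between libraries (374280 to 489420), so levels compare between genes and between samples only approximately. There were 15 RNA-seq libraries, 3 each from hindbrain, forebrain, alar plate and the ventral and dorsal midbrain, all dissected at E12.5 (days of embryonic development) from C57bl/6 mice that carry GFP driven by the Th promoter. Every group shares that transgene, strain and age, none was treated, and the labels give neither the brain level of the alar plate samples nor the number of embryos behind a region. P-values therefore speak only of how these samples vary, technical variation included. Each library held 8245756 to 12466231 recovered reads, and 3 reads of a median-length gene corresponded to 0.0768 to 0.115 RPKM, a floor that covers counting error only.

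Potassium channels let potassium leave or enter the cell and so set the resting potential, shape the action potential and limit firing. Voltage-gated families (Kcna, Kcnb, Kcnc, Kcnd, Kcnh, Kcnq) open on depolarisation, K2P leak channels (Kcnk) pass a background current, inward rectifiers (Kcnj) hold the membrane near rest, and the Kcnm and Kcnn families respond to calcium. In newborn neurons these currents appear step by step as excitability is acquired, and in adult midbrain dopaminergic neurons members of several of these families pace the firing.

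Some libraries stood apart from their pair. Across genes on the log2(RPKM + 1) scale, Pearson's r within a region was 0.983 to 0.997, except that alar plate 3 had 0.967 with both of its pair. Dorsal midbrain 3 had 0.987 and 0.988 against 0.997 for its pair, and forebrain 1 had 0.985 and 0.983 against 0.995. Alar plate 3 also had the highest RPKM total, 489420 where the rest had 374280 to 390992. The label of the ventral midbrain was checked on Th itself, which had 77.5, 81.7 and 68.9 RPKM there and at most 6.39 in any other library. The labels of the other regions were not checked in this way, and libraries of 1 region could differ in marker genes. Foxa2 had 0.137, 16.25 and 20.6 RPKM in forebrain 1, 2 and 3. Pax6 had 1.805, 0.1941 and 44.89 RPKM in dorsal midbrain 1, 2 and 3. What lay behind these spreads was not tested.

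Of the 95 genes, 70 had reads in every library, 8 in only 1 to 9 libraries, and Kcnk16 and Kcnmb3 were listed at 0 in all. The mean level over the 15 libraries was at least 10 RPKM for 6 members, between 1 and 10 for 41 and under 1 for 48. The 3 highest mean levels belonged to members of different families. Kcnmb4, an accessory subunit that slows and modulates the calcium-activated BK channel, led at 14.5 RPKM, while Kcnma1, which encodes the BK pore itself, had 1.83. Next came Kcnh2, the ERG channel that repolarises after spikes, at 14.4, and Kcnd3, a Kv4 channel of the transient A-type current, at 13.7. The K2P leak channels Kcnk10 and Kcnk9 had 10.09 and 10.02, although the mean of Kcnk9 came mostly from a single region.

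**Figure D1:**
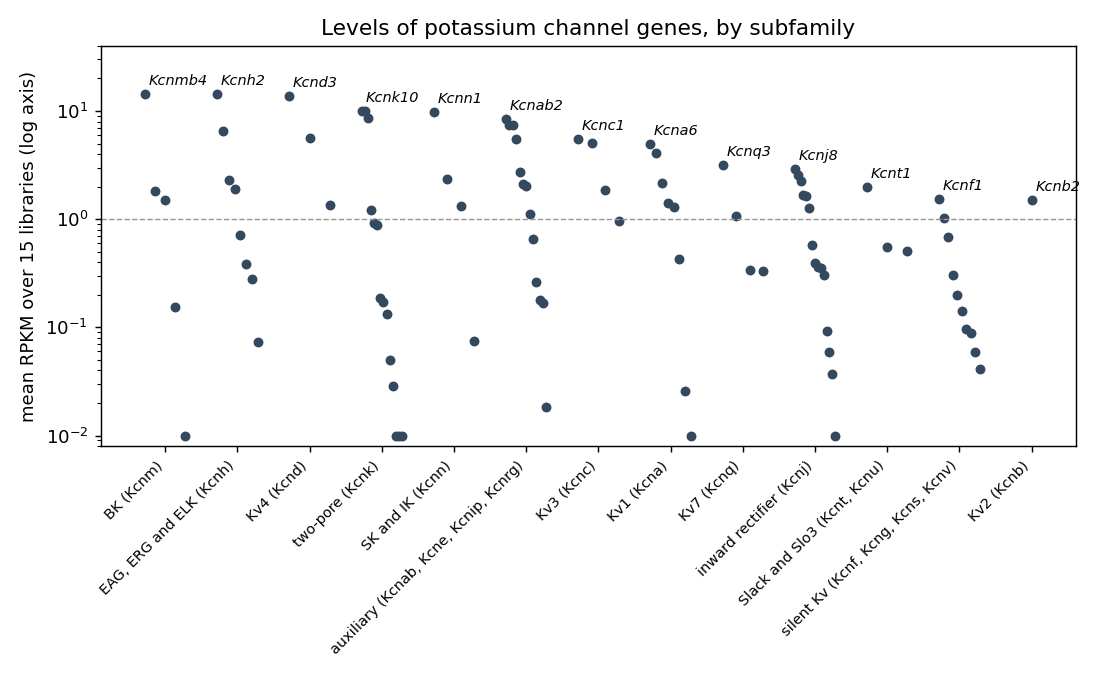
Mean RPKM over the 15 libraries (log axis) of 92 of the 95 genes, 1 point per gene, by family, with the highest gene drawn in each named and means under 0.01 drawn at 0.01. The dashed line marks 1 RPKM, and most families have 1 or 2 members near the top and the others below.

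A level of at least 1 RPKM in at least 3 libraries was reached by 52 members, which entered the tests, while 43 did not. Differences were tested with limma on log2(RPKM + 1) and called at a Benjamini-Hochberg adjusted p under 0.05 over all 13745 genes tested, each region being set against the mean of the other 4. The first question was how many members differ by region at all. Of the 52 members, 34 (65.4%) did, against 33.7% of all genes tested. Without dorsal midbrain 2 the count was 22 (42.3%, with 17.3% of all genes called in that fit). Over the 5 single-region comparisons together 30 members were called, and the matching number for all genes was not counted. The comparisons share libraries, so a member low in one region can for that reason be high in another, and the reverse. In dissected tissue, fewer cells of a type and less RNA per cell cannot be told apart.

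**Figure D2:**
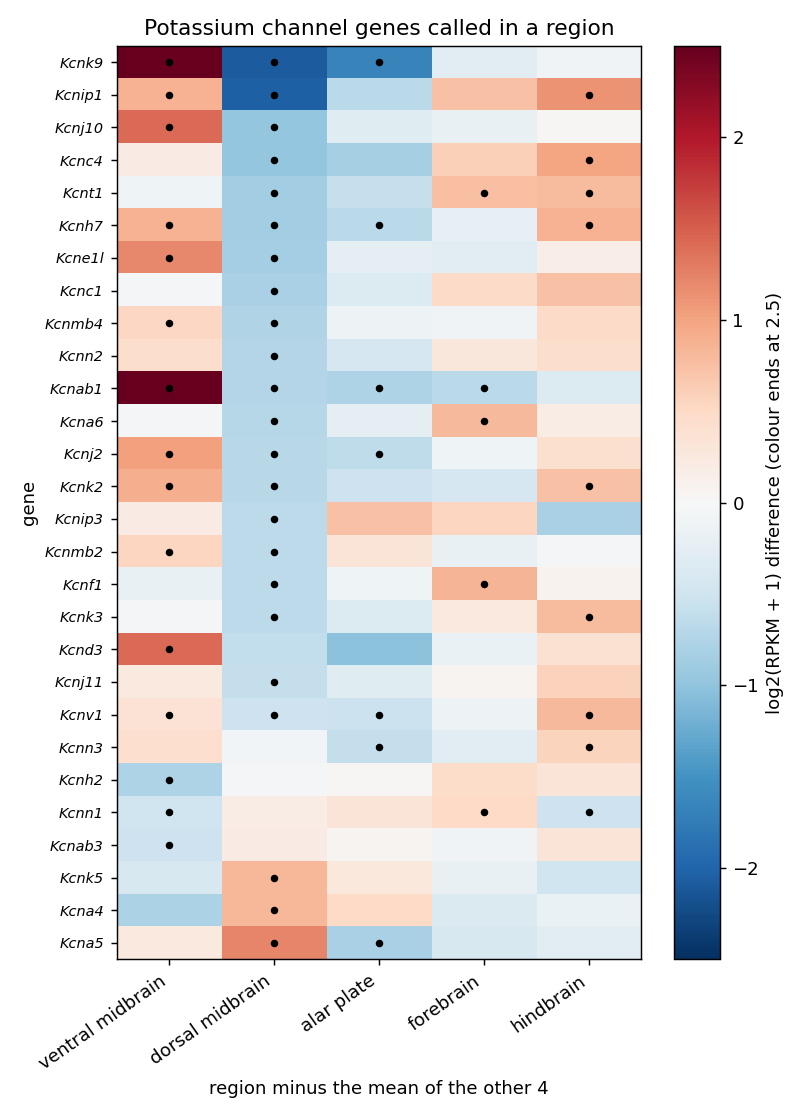
Log2(RPKM + 1) difference of each region from the mean of the other 4 (colour, ending at 2.5) for 28 of the 30 members called in at least 1 region, with a dot where the adjusted p was under 0.05. Red cells gather in the ventral midbrain and hindbrain columns and blue cells in the dorsal midbrain column. In the alar plate column all 7 dots mark lower members. In the forebrain column 4 dots mark higher members and 1 a lower member.

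In the ventral midbrain, where dopaminergic neurons are born, 12 members were higher and 3 lower, which is 28.8% of the members tested against 10.6% of all genes tested (7.43% called higher and 3.16% lower). With quantile normalization the split was 10 higher and 6 lower. The members' median difference was 0.18 on the log2(RPKM + 1) scale, against -0.02 for all genes. A raised median was not particular to this region. It was 0.24 in the forebrain (-0.03 for all genes), 0.19 in the hindbrain (-0.01) and -0.325 in the alar plate (-0.008). Without dorsal midbrain 3, forebrain 1 and alar plate 3 together, 16 were higher and 8 lower in the ventral midbrain. That is 47.1% of the members tested, with 33.5% of all genes called in that fit. The 3 ventral midbrain libraries lay above all 12 others in 6 of the 52 members tested (11.5%), all 6 among those called higher, and in 4.89% of all genes tested. In the same comparison all 11 dopaminergic neuron genes were higher, with 3 of 13 pan-neuronal and 3 of 11 neural progenitor genes, and their part in the members' values was not tested.

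Kcnk9 encodes TASK3, an acid-sensitive K2P leak channel. It measured 41.4, 43.3 and 41.5 RPKM in the ventral midbrain. The forebrain libraries had 0.622, 6.10 and 3.78 RPKM and those of the hindbrain 2.40, 4.17 and 3.22. It had 1.07, 1.60 and 0 in the alar plate, and 0.528, 0.312 and 0.331 in the dorsal midbrain. The ventral midbrain therefore stood far above every other library, the forebrain and hindbrain overlapped each other, and the dorsal midbrain rested on only 5 to 8 reads a library. The difference of the ventral midbrain from the other regions was 4.11 ± 0.35 (SE, log2(RPKM + 1), limma adjusted p = 5.59e-06). Under the other settings it ranged from 3.85 to 5.25 and stayed past the threshold.

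Kcnab1, a cytoplasmic beta subunit that speeds inactivation of Kv1 channels, had 11.2, 9.43 and 9.09 RPKM in the ventral midbrain and 0.573 to 1.47 in the other 12 libraries. Its difference was 2.51 ± 0.11 (SE, limma adjusted p = 2.04e-08). The pore-forming Kv1 genes were not called in this comparison. Kcnd3 had 27.4, 27.1 and 26.5 RPKM in the ventral midbrain against 2.72 to 16.3 elsewhere, a difference of 1.42 ± 0.28 (SE, adjusted p = 0.00428). Kcnip1, an accessory subunit of these Kv4 channels, had 10.1, 10.5 and 9.71 RPKM in the ventral midbrain. That was within the range of the hindbrain (8.66, 14.3 and 13.1) and the forebrain (5.53, 11.04 and 12.99), but above the alar plate (3.76, 4.14 and 3.35) and the dorsal midbrain (0.701, 0.892 and 2.38), and the difference was 0.86 (adjusted p = 0.0284). Kcnd2, the other main Kv4 pore gene, had 6.83, 7.68 and 7.26 RPKM in the ventral midbrain and was not called (adjusted p = 0.305).

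Kcne1l, a single-pass accessory subunit of the KCNE family, had 14.35, 13.96 and 14.24 RPKM in the ventral midbrain and 3.30 to 8.61 elsewhere, a difference of 1.20 ± 0.10 (SE, adjusted p = 6.55e-06). The dorsal midbrain libraries were its lowest, below all 12 others. Among inward rectifiers, Kcnj10, the Kir channel best known from glia, had 6.38, 5.87 and 5.21 RPKM in the ventral midbrain and 0.497 to 3.75 elsewhere, and differed by 1.42 ± 0.30 (SE, adjusted p = 0.0085). Kcnj2, a strong inward rectifier, had 3.50, 3.20 and 3.38 RPKM against 0.493 to 2.19, a difference of 1.03 ± 0.15 (SE, adjusted p = 0.000584). For both, the ventral midbrain libraries did not overlap with any other library. The Kcnj10 call was lost without ventral midbrain 1 (adjusted p = 0.0594).

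**Figure D3:**
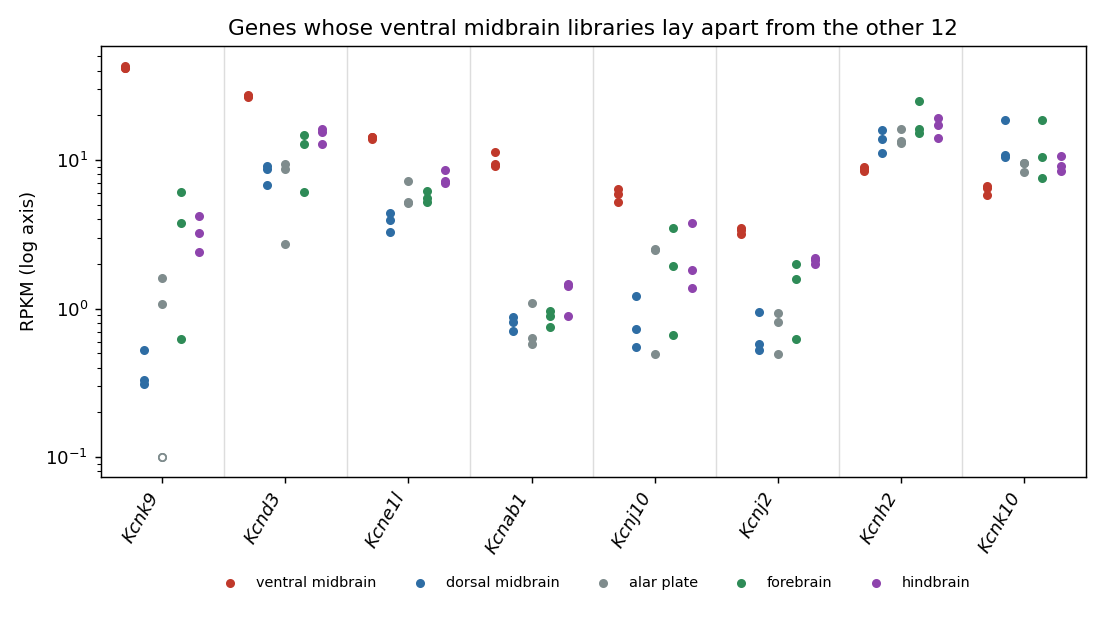
RPKM (log axis) in each of the 15 libraries, 1 point per library coloured by region, for the 8 tested members in which the ventral midbrain did not overlap with the other 12 libraries. The open circle at 0.1 stands for the value of 0 of Kcnk9 in alar plate 3, and the 3 ventral midbrain points of Kcnk9 sit at 41.4 to 43.3 RPKM.

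The other 5 members higher in the ventral midbrain differed by 0.36 to 0.90. Kcnh7, an ERG-family channel, was higher by 0.86 and Kcnmb4 by 0.51, and Kcnv1, a subunit that is silent alone and modifies Kv2 channels, by 0.36. Kcnk2, the mechanosensitive K2P channel TREK1, was higher by 0.90 (adjusted p = 0.00165) and Kcnmb2, another BK accessory subunit, by 0.54 (adjusted p = 0.027). These last genes were named after their values were seen. Leaving out any 1 ventral midbrain library ended the calls of Kcnip1, Kcnmb4, Kcnv1 and Kcnmb2, while those of Kcnk2 and Kcnh7 held. Under quantile normalization the difference of Kcnv1 was 0.17 (adjusted p = 0.324) and the call of Kcnmb2 was also lost (adjusted p = 0.0933).

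Lower in the ventral midbrain were Kcnh2, Kcnab3 and Kcnn1. Kcnh2 had 8.75, 8.92 and 8.43 RPKM there against 11.2 to 24.9 in the other 12 libraries, without overlap, and was lower at -0.77 ± 0.14 (SE, adjusted p = 0.00294). So 2 genes of the ERG type differed in opposite directions, Kcnh7 being higher and Kcnh2 lower. Such a position below all others was held in 2.85% of all genes tested. Kcnn1, an SK channel that carries the after-hyperpolarisation, had 7.36, 6.90 and 6.82 RPKM, close to the hindbrain (7.83, 7.13 and 5.93), while the remaining regions had 10.2 to 15.6. Its difference was -0.49 (adjusted p = 0.00455). Kcnab3 had 1.43, 1.17 and 1.30 RPKM against 1.31 to 3.03 elsewhere, a difference of -0.53 (adjusted p = 0.0101) that was lost without ventral midbrain 2 or 3. Kcnk10, with 5.85, 6.74 and 6.49 RPKM, lay below all 12 other libraries (7.54 to 18.6) but missed the threshold (-0.66, adjusted p = 0.0571).

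The sequence before the start of transcription was read for the members that moved together here, from RefSeq promoters of GRCm38.p6, a later build than the mm9 of the deposited values. Of the 95 members 70 had a promoter entry, and 10 of the 12 that were higher in the ventral midbrain did. The lines below give the 250 bases before the start, 5′ to 3′ on the gene's strand, for the 4 genes that lay above all other libraries and have 1 listed start. Capitals mark the E-box letters CAGCTG, a palindrome and the core recognised by many basic helix-loop-helix factors of neurogenesis.
Kcnd3, chr3:105451640-105451889 (+ strand): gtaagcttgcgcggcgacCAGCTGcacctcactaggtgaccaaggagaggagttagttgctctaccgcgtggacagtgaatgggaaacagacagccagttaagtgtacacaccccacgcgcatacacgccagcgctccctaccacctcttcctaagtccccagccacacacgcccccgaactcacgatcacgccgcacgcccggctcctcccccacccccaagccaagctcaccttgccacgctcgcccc
Kcne1l, chrX:142306199-142306448 (- strand): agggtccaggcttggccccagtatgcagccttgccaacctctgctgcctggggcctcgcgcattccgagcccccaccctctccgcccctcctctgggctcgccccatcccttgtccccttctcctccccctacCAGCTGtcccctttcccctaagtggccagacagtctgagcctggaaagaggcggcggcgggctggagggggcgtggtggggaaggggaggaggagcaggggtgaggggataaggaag
Kcnj2, chr11:111065914-111066163 (+ strand): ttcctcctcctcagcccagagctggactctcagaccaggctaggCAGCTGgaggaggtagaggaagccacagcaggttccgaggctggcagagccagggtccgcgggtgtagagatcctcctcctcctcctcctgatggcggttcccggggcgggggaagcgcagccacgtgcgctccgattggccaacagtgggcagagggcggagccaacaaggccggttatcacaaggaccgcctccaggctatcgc
Kcnj10, chr1:172340960-172341209 (+ strand): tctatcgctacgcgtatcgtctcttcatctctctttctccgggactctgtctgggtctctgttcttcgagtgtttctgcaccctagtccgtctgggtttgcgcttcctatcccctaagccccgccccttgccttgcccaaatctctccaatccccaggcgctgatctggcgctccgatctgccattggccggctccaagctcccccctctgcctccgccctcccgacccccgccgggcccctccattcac
Kcnd3, Kcne1l and Kcnj2 each hold these letters once and Kcnj10 does not. In windows of 300 bases (250 before to 50 after the start), the 95 promoters of members (some have several starts) were set beside 32851 mouse promoters. The median GC content was 58% against 52.7%. In all 7 motifs were searched on both strands: TAATTA (homeobox core), TGTTTAC (forkhead), AAAGGTCA (NBRE, bound by Nr4a factors), TAATCC (bicoid-type homeobox), GACCACCCA (GLI), CAGCTG and TATAAA. The last 2 were added after the first 5 gave no match in the genes higher in the ventral midbrain. Their shares of all mouse promoters were 5.29%, 3.65%, 1.51%, 7.06%, 0.253%, 16.3% and 13.6% in that order. Those of the members' promoters were 0%, 0%, 1.05%, 3.16%, 0%, 25.3% and 5.26%, so the share of members was above that of all promoters for CAGCTG alone and below it for the other 6. A match describes the letters in the window and no more.

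In the dorsal midbrain the members lay mostly on the low side, with 22 lower and 3 higher. That is 48.1% of the members tested, against 32% of all genes tested, of which 18.2% were called higher and 13.8% lower. The median difference of the members was -0.42, against 0.05 for all genes. Without dorsal midbrain 1 the count fell to 10 and without dorsal midbrain 2 to 15, and without the 3 libraries that stood apart it was 42, with 6 higher and 36 lower (82.4%, with 64.5% of all genes called in that fit). The shares of all genes called fell to 8.3% and 11% without dorsal midbrain 1 or 2.

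Kcnk9 and Kcnip1 were the lowest relative to the other regions, at -2.09 ± 0.35 (SE, adjusted p = 0.00175) and -2.04 ± 0.23 (SE, adjusted p = 0.000152), from the values given above. The dorsal midbrain libraries of Kcnip1 lay below all 12 others. So did those of Kcnmb4, which had 9.38, 9.37 and 7.61 RPKM against 9.58 to 19.9 and differed by -0.76 ± 0.14 (SE, adjusted p = 0.00257). Together with Kcne1l these were the only tested members of which this held, and 2.38% of all genes tested had that arrangement.

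Several pore genes were lower in dorsal midbrain 1 and 2 than in dorsal midbrain 3. Kcnc4, a fast Kv3 channel, had 0.167, 0.157 and 1.36 RPKM, and its relative Kcnc1 had 1.89, 2.34 and 4.87. Kcnt1, the sodium-activated Slack channel, had 0.460, 0.460 and 1.22. In each of them the third library was the highest of the group. The calls of Kcnc4 (-0.97), Kcnc1 (-0.82), Kcnf1 (-0.65) and Kcnk3 (-0.65) were lost without dorsal midbrain 1 or without dorsal midbrain 2. That of Kcnt1 (-0.87) was lost without dorsal midbrain 1 (adjusted p = 0.0539). Kcnh7 (-0.87), Kcnab1 (-0.74), Kcnn2 (-0.74) and Kcnv1 (-0.51) held in every setting that tested them. For Kcnab1 the dorsal midbrain mean was 0.795 RPKM, close to the alar plate (0.767) and forebrain (0.868), with 9.92 in the ventral midbrain.

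Members higher in the dorsal midbrain were Kcna5, Kcna4 and Kcnk5. Kcna5, a Kv1 delayed rectifier, had 2.45, 3.49 and 3.57 RPKM, above all 12 other libraries (0.126 to 1.79), and was higher by 1.23 ± 0.12 (SE, adjusted p = 4.58e-05). An arrangement above all 12 others was found in 5.91% of all genes tested. Kcna4, the inactivating Kv1 channel, had 3.81, 3.78 and 0.859 RPKM, so dorsal midbrain 3 fell among the other regions (0.336 to 2.57). Its difference of 0.83 (adjusted p = 0.0276) was lost without dorsal midbrain 1 or 2. Kcnk5, the alkaline-activated K2P channel TASK2, had 2.45, 1.95 and 1.35 RPKM against 0.211 to 1.55, a difference of 0.82 (adjusted p = 0.00541), lost without dorsal midbrain 1 (adjusted p = 0.0602). Kcna6, a further Kv1 gene, was lower at -0.71 (adjusted p = 0.0134), a call lost without dorsal midbrain 1 (adjusted p = 0.127) or 2 (adjusted p = 0.105). Kcng1, a silent subunit, had 5.38 RPKM in dorsal midbrain 3 alone and at most 1.85 in any other library.

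Markers of other cells moved in the same comparison. Of 13 pan-neuronal genes 7 were lower in the dorsal midbrain and none higher, with summed levels of 2163, 2406 and 2887 RPKM against 2691 to 3684 elsewhere. All 10 proliferation genes were higher, with 722.6, 637.6 and 333.7 RPKM summed against 104.6 to 480.6, and 7 of 8 genes of meninges and mesenchyme were higher, with 120.7, 128.0 and 67.7 against 4.06 to 164.6. Of 8 endothelial genes 4 were higher, and of 11 neural progenitor genes 4 were higher and 2 lower. The part of these cells in the members' values was not tested. The summed level of the potassium channel genes without Kcnk9 was 140.1, 152.6 and 190.1 RPKM in the dorsal midbrain, where the library with the highest channel sum also had the highest neuronal and the lowest proliferation sum. The alar plate had 185.7, 192.4 and 133.4, the ventral midbrain 235.6 to 254.8, the forebrain 208.1 to 250.3 and the hindbrain 224.2 to 257.5.

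**Figure D4:**
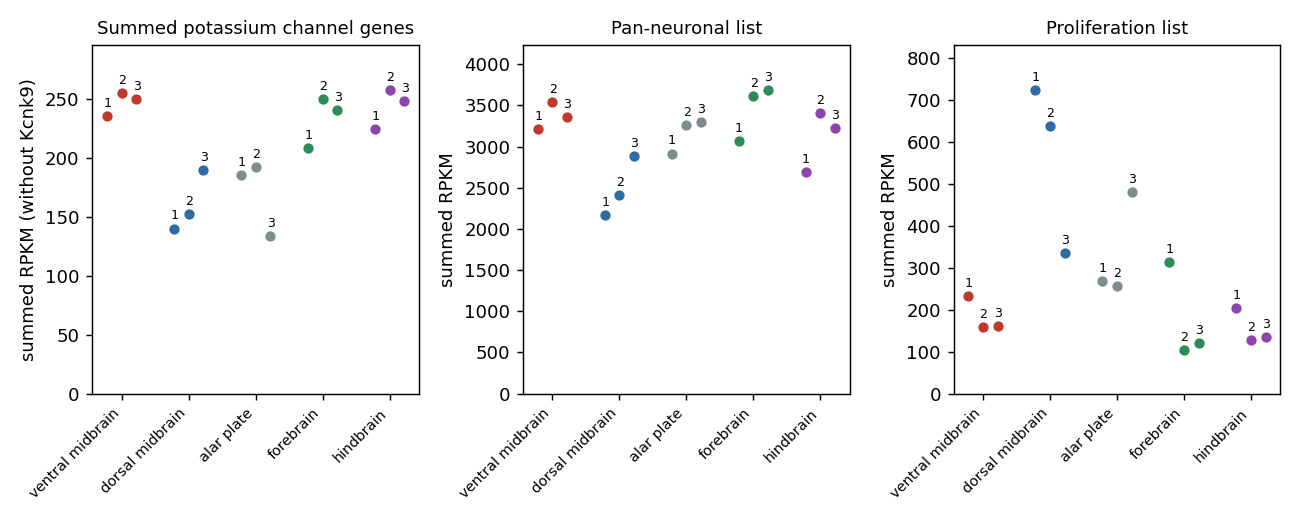
Summed RPKM in each library (points numbered by replicate, coloured by region) of the potassium channel genes without Kcnk9, of the 13 measured pan-neuronal genes and of the 10 proliferation genes. Dorsal midbrain 1 and 2 sit low in the first and second panels and high in the last. Alar plate 3 is the lowest library for the channel sum but not for the neuronal sum. Among the 13 neuronal genes, alar plate 3 was the highest library for Tubb3 (1581 RPKM) and Stmn3 (487.5). It was the lowest for Dcx (58.4), Elavl3 (63.7), Ina (95.6), Syt1 (11.6) and Rbfox3 (5.62), and lay between for the others.

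Between the midbrain's ventral and dorsal parts, 17 members were higher ventrally and 7 dorsally. This is 46.2% of the members tested, against 23.9% of all genes tested (11.4% higher ventrally and 12.4% dorsally). Markers of other cells moved here too. All 11 dopaminergic neuron genes and 5 of 13 pan-neuronal genes were higher ventrally, and 9 of 10 proliferation genes and 5 of 8 genes of meninges and mesenchyme were higher dorsally. Summed ventral levels were 733.3 to 789.6 RPKM for the first of these lists (20.1 to 45.9 dorsally), 3213 to 3545 for the second, 159.3 to 232.6 for the third and 6.63 to 7.57 for the last, beside the dorsal sums given above. Their part in these differences was not tested. The largest differences were Kcnk9 at 4.96 ± 0.44 (SE, adjusted p = 8.79e-06), Kcnab1 at 2.60 ± 0.14 (adjusted p = 1.28e-07), Kcnip1 at 2.32 ± 0.29 (adjusted p = 0.000146) and Kcnj10 at 1.91 ± 0.39 (adjusted p = 0.00424). Kcnn2, the SK channel that follows Kcnn1 in level, had 2.89, 3.38 and 3.07 RPKM ventrally and 0.846, 0.722 and 2.06 dorsally, without overlap, and was higher ventrally by 0.95 (adjusted p = 0.00432). Its relative Kcnn1 was lower ventrally, at -0.55 (adjusted p = 0.00749). Kcnk10 was also lower ventrally, at -0.91 (adjusted p = 0.0225), a call lost without dorsal midbrain 3 (adjusted p = 0.0676) or any ventral midbrain library. Higher dorsally were further Kcna4 (-1.30), Kcnk5 (-0.98), Kcna5 (-0.79), Kcnab3 (-0.59) and Kcnh2 (-0.58). Of these, Kcnh2 lost its call without any 1 of 5 of the 6 midbrain libraries and under median-ratio scaling (adjusted p = 0.0556), Kcna4 without dorsal midbrain 1 or 2, Kcnk5 without dorsal midbrain 1, and Kcnab3 without ventral midbrain 2 or dorsal midbrain 2. Kcnb2 and Kcnj11, higher ventrally by 0.81 and 0.67, lost their calls without any 1 ventral midbrain library and without dorsal midbrain 1 or 2. Kcnj11, the pore of the ATP-sensitive channel, was named after its values were seen.

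The hindbrain had 9 members higher and 1 lower, 19.2% of the members tested against 6.3% of all genes tested (4.03% higher, 2.27% lower). With quantile normalization 10 were higher and 3 lower. Leaving out hindbrain 2 or hindbrain 3 cut the count to 4 or 2, and leaving out alar plate 3 or dorsal midbrain 3 raised it to 17 or 16, in fits that called 2.6%, 2.32%, 14.6% and 11.6% of all genes in that order. Kcnv1 lay above all 12 other libraries, with 1.24, 1.69 and 1.68 RPKM against 0.128 to 1.08, a difference of 0.82 ± 0.09 (SE, adjusted p = 0.000149). This arrangement was found in 2.34% of all genes tested, and no member lay below all others, as 1.51% of all genes did. Kcnv1 reached 1 RPKM outside the hindbrain in a single library and so passed the filter only through the hindbrain, which favours such a position. Its call held in every setting that tested it, the one with no filter among them (adjusted p = 2.04e-05).

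The other members named for the hindbrain overlapped with other regions. Kcnip1 was higher by 1.12 and Kcnh7 by 0.88, with Kcnh7 at 3.10, 3.44 and 3.37 RPKM, level with the ventral midbrain (3.39, 3.48 and 2.96) and above the forebrain's 0.809 to 1.83. Kcnc4 was higher by 0.99, with 1.62, 4.72 and 4.58 RPKM, and hindbrain 1 fell within the range of the ventral midbrain and forebrain. Kcnt1 and Kcnk3, the K2P channel TASK1, were both higher by 0.80. Kcnk3 had 1.63, 2.95 and 2.43 RPKM, so the relatives TASK1 and TASK3 were highest in different regions. Kcnk2 was higher by 0.73 with 17.1, 10.3 and 10.7 RPKM, led by hindbrain 1, and Kcnn3 by 0.56 with 2.11, 1.98 and 2.13. Kcnn1 was lower at -0.52 (adjusted p = 0.00607), so among SK genes the hindbrain was high for Kcnn3 and low for Kcnn1. The calls of Kcnip1, Kcnh7, Kcnc4, Kcnt1, Kcnk3 and Kcnn3 were lost without hindbrain 2 or without hindbrain 3, that of Kcnn1 without hindbrain 3 (adjusted p = 0.0769) and that of Kcnk2 without hindbrain 1 (adjusted p = 0.0882). In all, Kcnc4 lost its call in 10 of 22 other settings and Kcnn3 in 7 of 22, a pseudocount of 0.1 RPKM among them for both.

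In the forebrain 4 members were higher and 1 lower, 9.62% of the members tested against 2.92% of all genes tested (0.618% higher, 2.3% lower). Kcna6, a Kv1 channel, had 7.35, 8.53 and 7.64 RPKM, above all 12 other libraries (1.88 to 5.43), and was higher by 0.80 ± 0.19 (SE, adjusted p = 0.0382). Its levels in the other regions ran in order from 5.25 ± 0.20 (SD, n = 3) in the hindbrain through 4.58 ± 0.92 in the ventral midbrain and 3.996 ± 0.72 in the alar plate to 3.06 ± 1.86 in the dorsal midbrain, and neighbours in that order overlapped. Kcnf1, a silent subunit, also lay above all others, at 1.79, 3.29 and 3.76 RPKM against 0.283 to 1.76, and was higher by 0.85 ± 0.19 (SE, adjusted p = 0.0325), with forebrain 1 barely above. Such an arrangement was found in 0.778% of all genes tested, and no tested member lay below all others (0.939% of all genes). Kcnt1 (0.76, adjusted p = 0.0493) and Kcnn1 (0.50, adjusted p = 0.0175) were the others higher, and Kcnab1 was lower at -0.67 (adjusted p = 0.0094). The forebrain mean of Kcnab1 was 0.868 RPKM, not below the dorsal midbrain (0.795) or alar plate (0.767). The hindbrain had 1.26, and the mean of the other 4 regions held the ventral midbrain's 9.92.

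These forebrain calls were close to the threshold. Without forebrain 2 none of the 5 was called by limma, although 11 members had an unadjusted p under 0.05, and without forebrain 3 the count was 1. Those fits called 0.518% and 0.919% of all genes. The count was 8 without forebrain 1 (6.99% of all genes) and 9 without dorsal midbrain 3 (8.34%) or alar plate 3 (8.24%). It was 2 or 3 without dorsal midbrain 1 or 2, any ventral midbrain library or any hindbrain library. Of all genes, 1.64% to 1.86% were called without those dorsal or ventral midbrain libraries, and 2.17% and 2.19% without hindbrain 1 and 2. Without the 3 libraries that stood apart the count was 28 (24 higher, 4 lower). That last count is 54.9% of the members tested, in a fit that called 43.7% of all genes. The Kcna6 call was lost in 14 of 23 other settings, that of Kcnt1 in 13 of 22 and that of Kcnf1 in 9 of 22.

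**Figure D5:**
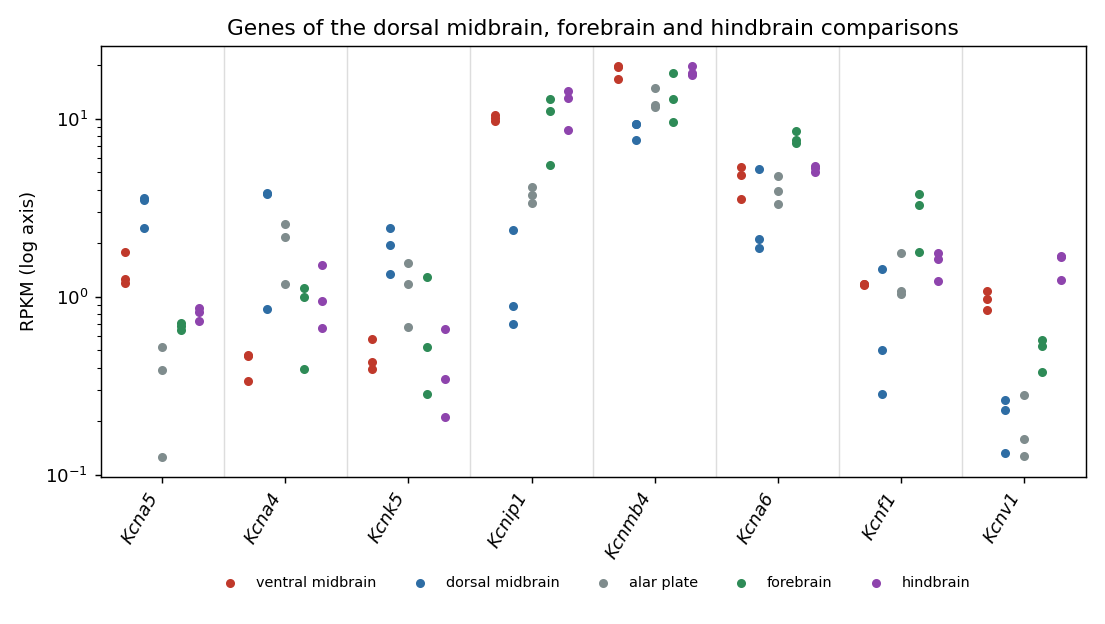
RPKM (log axis) in each of the 15 libraries, 1 point per library coloured by region, for 8 members described for the dorsal midbrain, forebrain and hindbrain. Kcna5 is highest in the dorsal midbrain, Kcna6 and Kcnf1 in the forebrain and Kcnv1 in the hindbrain, and 1 dorsal midbrain point of Kcna4 falls among the other regions.

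In the alar plate 7 members were lower and none higher, 13.5% of the members tested against 4.66% of all genes tested (1.24% higher, 3.41% lower). Quantile normalization gave 7 lower and 2 higher. Kcna5 was lower at -0.81 ± 0.12 (SE, adjusted p = 0.0021), with 0.520, 0.388 and 0.126 RPKM, below all 12 others, so this gene was highest in the dorsal midbrain and lowest in the alar plate. Kcnab1 (-0.78), Kcnv1 (-0.54), Kcnk9 (-1.67), Kcnh7 (-0.67), Kcnj2 (-0.63) and Kcnn3 (-0.60) were the rest. For Kcnab1 the alar plate mean was 0.767 RPKM, close to the dorsal midbrain (0.795) and forebrain (0.868), with 9.92 in the ventral midbrain. The calls of Kcnk9, Kcnh7, Kcnj2 and Kcnn3 were lost without alar plate 3, whose values were the lowest of the 3 for each of them. Kcnh7 was the least secure, with an adjusted p of 0.0495 that missed the threshold in 17 of 22 other settings, among them quantile normalization (0.0565) and limma-voom (0.113). Kcnj2 lost its call in 11 of 22, Kcnn3 in 5 of 22 and Kcnk9 in 3 of 23. Kcnq3, a Kv7 channel subunit, also lay below all 12 others, with 2.27, 2.59 and 0.624 RPKM against 2.70 to 5.37, but missed the threshold (-0.73, adjusted p = 0.0517), and 0.808% of all genes tested had that arrangement. No tested member lay above all others in the alar plate (0.466% of all genes).

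Alar plate 3 was the lowest library for several other genes. Kcna3, a Kv1 channel, had 0.0473 RPKM there against 2.17 to 6.28 in the other 14, and Kcnd3 had 2.72 against 6.13 or more. In the other direction Kcne2, an accessory subunit known from the choroid plexus epithelium, had 1.58 RPKM in alar plate 3 and at most 0.185 elsewhere. Of the 5 choroid plexus genes listed, Ttr was at 89.3 RPKM in that library and at most 0.859 elsewhere, and Clic6 at 2.44 and at most 0.135 elsewhere. Folr1 and Aqp1 did not peak in that library. Folr1 had 1.62 RPKM in alar plate 3 and 9.62 to 11.4 in the ventral midbrain. Aqp1 had 0.308 RPKM in alar plate 3 and 0.627 to 0.937 in the dorsal midbrain. The list summed to 152.8 RPKM in alar plate 3 and 4.46 to 162.2 elsewhere. The highest of those sums was nearly all Otx2 (160.9 RPKM in dorsal midbrain 2). Otx2 is a transcription factor of the forebrain and midbrain as well as of the choroid plexus. The part of choroid plexus in the Kcne2 value was not tested. The alar plate count was 12 without alar plate 1 (12.9% of all genes called) and 15 without forebrain 1 (8.23%). It was 4 without ventral midbrain 2 (2.97%) or 3 (2.83%). Without the 3 libraries that stood apart it was 18 (4 higher and 14 lower, 35.3%, with 12.3% of all genes called).

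The 43 members that were not tested had low levels, and for them the deposited values allow little. With no filter beyond reads in 3 libraries, 20 members were higher and 3 lower in the ventral midbrain, 25.8% of the 89 then tested against 9.3% of all genes in that fit. The following were named after their values were seen. Kcnj6, the Girk2 channel of dopaminergic neurons that is opened by G-protein-coupled receptors, had 0.707, 0.858 and 1 RPKM in the ventral midbrain and 0.0277 to 0.490 elsewhere, from 45 to 76 reads against 2 to 42. Kcng3, a silent subunit, had 0.546, 0.617 and 0.807 RPKM against 0 to 0.370. Kcnj16, a Kir subunit that pairs with Kcnj10, had 0.701, 0.871 and 1.20 RPKM in the ventral midbrain and 0.971, 0.893 and 0.966 in the hindbrain, against 0 to 0.129 in the other 9 libraries. In that fit Kcnj6 was higher by 0.61 (adjusted p = 5.02e-05), Kcng3 by 0.61 (6.03e-05) and Kcnj16 by 0.66 (1.82e-05) in the ventral midbrain, and Kcnj16 by 0.69 (2.99e-05) in the hindbrain. Kcna1, another Kv1 gene, was higher in the dorsal midbrain by 0.60 (adjusted p = 0.00356), with 0.981, 1.20 and 0.716 RPKM against 0.0839 to 0.606.

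Other genes of membrane excitability, 51 in number and not chosen for their direction, gave the setting for these counts. Of 40 tested, 8 were higher and 2 lower in the ventral midbrain, and 1 was higher and 14 lower in the dorsal midbrain. The alar plate had 5 lower, the hindbrain 3 higher and the forebrain 1 higher. Of all genes tested, 10.6%, 32%, 4.66%, 6.3% and 2.92% were called in these 5 comparisons in that order. The median difference of the excitability genes was 0.15 in the ventral and -0.47 in the dorsal midbrain, near the 0.18 and -0.42 of the potassium channel genes. Dpp10, an accessory subunit of Kv4 channels with a symbol outside Kcn, was higher in the ventral midbrain by 1.52 (adjusted p = 0.00757) and in the hindbrain by 1.45 (adjusted p = 0.0172), and lower in the dorsal midbrain at -1.83 (adjusted p = 0.00221). These are the directions of Kcnip1, another Kv4 partner, in the same comparisons. Its relative Dpp6 was lower in the dorsal midbrain (-0.77, adjusted p = 0.0238). Cntnap2, which clusters Kv1 channels on axons, was lower in the ventral midbrain (-1.49, adjusted p = 6.28e-05) and higher in the dorsal midbrain (0.95, adjusted p = 0.00228). Lgi1, a secreted protein found with Kv1 channels, went the other way, higher in the ventral midbrain (1.68, adjusted p = 4.86e-06) and lower in the dorsal midbrain (-1.21, adjusted p = 0.00018). The 8 channel partners listed, 7 of them tested, thus had 2 higher and 2 lower in the ventral midbrain, the second lower one being Amigo1 (-0.45, adjusted p = 0.00465).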

How the data were processed

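The labels describe tissue dissected from 5 brain regions at E12.5 with 3 samples each, and TruSeq libraries from 200 ng of Trizol-extracted RNA. The authors deposited 1 table of RPKM values with 1 column per sample. The submitters' processing notes name Bowtie and the build mm9, while the sources used here do not give versions, annotation, counting, strand use or filters. Overlapping genes such as Kcnq1 and Kcnq1ot1 may share reads.

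Reads were recovered from the steps between RPKM values, which were whole within 0.02 reads (at most 0.15 for large values) in every library for 16574 of 16612 genes (99.8%) above 0 in at least 10 libraries and for all 85 such members. They served only for depth and for one alternative test, limma-voom.

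The main fit used limma (version 3.58.1) in R (version 4.3.3), with 5 region means and a trended variance of log2(RPKM + 1) over all 15 libraries, for genes with at least 1 RPKM in at least 3 libraries. Tests were two-sided with Benjamini-Hochberg adjustment within a comparison. A difference on this scale understates the change of weakly expressed genes. The fit was tested on simulated reads: the false share among called genes ran above the nominal level, more so for the test of any difference among regions, so adjusted p-values near the threshold are the least secure. The pass criterion of that test was changed after it was first missed.

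The members, gene lists and tests were chosen with earlier results of these data known. Named genes were Kcnk9, Kcna6, up to 6 called members with the largest differences per region and direction, members with a mean of at least 1 RPKM whose 3 libraries of a region lay beyond the other 12, and the 2 members highest in each family. Marker lists of other cell types were summed per library and counted in the same fits, and all 11 genes of the dopaminergic neuron list were higher in the ventral midbrain. Map2 and Hba-a1 were not matched in the table. Some members count in the totals but are not reported here by name or drawn.

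Alternatives were other pseudocounts, filters and scalings, a block for the sample number, limma-voom, and leaving out libraries.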

Additional observations from a re-analysis of the deposited data

How the results depend on the processing

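None of the 86 differences of single members recomputed under the alternatives changed sign, and 38 kept their call in every one that tested them. Counts moved by over 1.5 times with the filter, with the 3 libraries that stood apart and, in most comparisons, on leaving out single libraries, as given below. Fewer genes are tested under a stricter filter. With a filter of 5 RPKM, 20 members were tested. Of these, 14 differed among the regions (70%, with 32.5% of all genes called). Between ventral and dorsal midbrain 11 did (55%, with 23.2%), and in the dorsal midbrain 11 (55%, with 31.9%). The alar plate had 2 (10%, with 3.84%), the forebrain 2 (10%, with 2.06%) and the hindbrain 3. With no filter the ventral midbrain had 23 (25.8% of 89 tested, with 9.3% of all genes). Without dorsal midbrain 3, forebrain 1 and alar plate 3 the count between ventral and dorsal midbrain was 40. That is 78.4% of the members tested, with 58.1% of all genes called. In the same fit 24 were called in the ventral midbrain (33.5% of all genes) and 42 in the dorsal midbrain (64.5%). The alar plate had 18 (12.3%), the forebrain 28 (43.7%) and the hindbrain 27. With a pseudocount of 0.1 RPKM the alar plate had 3 (3.91% of all genes) and the forebrain 2 (2.3%). The alar plate had 11 with median-ratio scaling (5.27%) and 3 with limma-voom on recovered reads (3.18%). The cause was not tested for the libraries, the pseudocount, the scaling or limma-voom.

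Leaving out 1 library at a time gave 22 to 42 members among the regions, 17 to 30 between ventral and dorsal midbrain, 10 to 22 in the ventral midbrain, 10 to 35 in the dorsal midbrain, 4 to 15 in the alar plate, 0 to 9 in the forebrain and 2 to 17 in the hindbrain. The share of all genes called moved too. Among the regions it was 17.3% in the fit with 22 members and 56.7% in the fit with 42. For the dorsal midbrain it was 8.3% with 10 members and 53.3% with 35. For the ventral midbrain it was 5.05% to 5.71% with 10 members and 19.6% with 22. With the sample number as a replicate block the counts were 34, 23, 16, 25, 6, 5 and 10 in the same order, and the alar plate call of Kcnh7 was among those lost (adjusted p = 0.0544). The labels do not say that a number marks shared embryos, and pairing was to be taken only if every same-number pair of libraries had a correlation of deviations over 0.1. That held for 18 of 30 pairs (r from -0.175 to 0.405), including all 9 among ventral midbrain, forebrain and hindbrain (0.234 to 0.382), and 12 of 15 libraries correlated best with their own number. These are hints toward pairing from the data and not from the design, and the calls reported leave the block out. Depth limits the 48 members with a mean under 1 RPKM most, and for alar plate 3 the sum of RPKM values differs from the other libraries, so its levels are the least comparable.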
